A study of Homo sapiens with 4 samples.

Results

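The 10 genes described here encode metalloproteinases that cut matrix or membrane proteins, the sheddases ADAM10 and ADAM17, and the tissue inhibitors of metalloproteinases (TIMPs). They were chosen by symbol: MMP1, MMP2, MMP7, MMP14, MMP15, TIMP1, TIMP2, TIMP3, ADAM10 and ADAM17, with every probe that the platform annotation assigns to them. This gave 15 of the 47315 probes and 10 of the 20044 genes on the array. RNA came from 4 populations of cultured pancreatic cancer cells, each on 1 Illumina bead array: the CD166+ and the CD166- cells of SW1990, and the same pair from Panc-1. SW1990 and Panc-1 are established human lines, and no treatment or genetic change is given for any population. CD166+ cells carried an anti-CD166 antibody and were retained with magnetic beads, whereas CD166- cells were collected as the depleted, unlabelled fraction. No separate sort or culture replicates a population, so a value within a line has no replicate error, and in bulk RNA fewer expressing cells cannot be told apart from less RNA per cell.

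MMPs are zinc-dependent endopeptidases that are made as inactive precursors and degrade collagens, laminins and other matrix proteins, either after secretion or at the cell surface. TIMPs bind the active site of these enzymes and block it. ADAM10 and ADAM17 are membrane-anchored relatives that release the outer part of adhesion molecules, growth factors and receptors, and CD166, the protein used for the sort and encoded by ALCAM, is itself released by ADAM17. In pancreatic cancer, these enzymes are studied for their part in invasion through the dense stroma.

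Detection of a probe required a detection p under 0.01, and 15565 to 16716 probes were detected per array, with mean intensities of 325 to 413. ALCAM was brighter in CD166+ than CD166- cells, by 6.19-fold in SW1990 and by 5.29-fold in Panc-1. The Panc-1 arrays correlated with each other at 0.989 over 11640 genes, and the SW1990 arrays at 0.827. The SW1990 CD166- array correlated better with the Panc-1 CD166+ and CD166- arrays, at 0.874 and 0.872, than with the SW1990 CD166+ array. From 1 array a wrong label and a population unlike the other cannot be told apart, and every CD166 fold in SW1990 given below rests on this array. A set of 31 probes had a signal over 1000 on both Panc-1 arrays and were undetected on the SW1990 CD166+ array. There the SW1990 CD166- signal was a median of 18.5% of the mean Panc-1 signal, with quartiles of 0.393% and 64.9%. Of 6 epithelial markers, 4 or 5 were detected per array, CDH1 on none, and KRT7 was 33.6-fold higher in CD166+ than CD166- cells of SW1990. Of 6 leukocyte markers, CD14 and CD68 were detected on every array and PTPRC, CD3E, LYZ and MS4A1 on none, with summed signals of 443 to 1273. The summed signal of 8 fibroblast markers, like the leukocyte sum without the offset that the other signals include, was 681, 2196, 507 and 429 in CD166+ SW1990, CD166- SW1990, CD166+ Panc-1 and CD166- Panc-1 cells, and COL1A2 was the 1 detected marker on the SW1990 CD166- array. The markers ACTA2, COL1A1 and PDGFRB were detected on the SW1990 CD166+ and not the SW1990 CD166- array, by at least 7.89-fold, 5.24-fold and 3.16-fold. The part of these differences in the values below was not tested.

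Promoter sequences give the setting of the genes whose signals are described next. RefSeq (GRCh38.p14) held the promoter, from 250 bases before to 50 after the start, of 7 of the 10 genes, with no entry used for MMP1, MMP2 and TIMP2. Each was searched for the AP-1 motif TGAGTCA and the GC box GGGCGG on both strands and for the TATA box TATAAA on the gene's strand, and the 3 motifs share no bases in the sequences shown. They occur in 4.95%, 45.0% and 7.33% of 35114 promoters of this length. The promoters of MMP7, detected only in Panc-1, and of ADAM10 and ADAM17, which were brighter together in SW1990 CD166- cells, are printed below on the gene's strand, with motif matches in capitals.
MMP7 promoter: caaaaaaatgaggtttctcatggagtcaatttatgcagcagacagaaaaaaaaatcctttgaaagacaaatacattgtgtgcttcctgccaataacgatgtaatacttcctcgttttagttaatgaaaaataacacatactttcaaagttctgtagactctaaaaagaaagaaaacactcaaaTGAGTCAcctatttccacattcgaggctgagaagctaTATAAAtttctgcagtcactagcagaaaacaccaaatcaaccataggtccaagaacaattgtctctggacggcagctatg
ADAM10 promoter: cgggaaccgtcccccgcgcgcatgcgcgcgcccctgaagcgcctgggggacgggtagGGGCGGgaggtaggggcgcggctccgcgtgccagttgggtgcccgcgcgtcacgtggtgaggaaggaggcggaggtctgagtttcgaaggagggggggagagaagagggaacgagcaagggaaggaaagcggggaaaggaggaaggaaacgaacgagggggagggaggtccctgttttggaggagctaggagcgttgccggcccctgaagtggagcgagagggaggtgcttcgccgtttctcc
ADAM17 promoter: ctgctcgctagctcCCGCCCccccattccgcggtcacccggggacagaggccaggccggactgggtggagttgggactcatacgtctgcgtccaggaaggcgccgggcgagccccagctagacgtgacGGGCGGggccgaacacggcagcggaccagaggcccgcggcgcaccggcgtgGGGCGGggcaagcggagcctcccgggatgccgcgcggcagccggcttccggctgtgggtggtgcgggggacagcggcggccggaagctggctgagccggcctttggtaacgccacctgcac

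The MMP7 promoter (chr11:102530698-102530997, minus strand) held 1 AP-1 match starting at base -67 and 1 TATA box at base -30, counted from the start site, and 4 CpG dinucleotides against a median of 14. The ADAM10 promoter (chr15:58749658-58749957, minus strand) held 30 CpG and 1 GC box, and the ADAM17 promoter (chr2:9555781-9556080, minus strand) 36 CpG and 3 GC boxes. Neither sheddase promoter held a match to TGAGTCA or TATAAA. The TIMP3 promoter held 31 CpG and 5 GC boxes, MMP15 39 and 5, TIMP1 16 and 2, and MMP14 10 and 1. A match marks letters in a window and was not linked to a factor or to the signals.

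The secreted MMPs chosen here, MMP1, MMP2 and MMP7, were detected in Panc-1 and on neither SW1990 array. MMP1 is the interstitial collagenase, which opens the fibrillar collagen helix. Its normalized signal, the background-corrected intensity plus an offset of 16, was 26.1, 26.8, 63.3 and 107 in CD166+ SW1990, CD166- SW1990, CD166+ Panc-1 and CD166- Panc-1 cells, and the detection p of 0.258 and 0.257 in SW1990 left it undetected there. Within Panc-1, MMP1 was 1.69-fold higher in CD166- cells (log2 fold, CD166+ over CD166-, -0.76). MMP2, the gelatinase that cuts denatured collagens and type IV collagen, had signals of 23.6, 24.7, 41.6 and 55.0 in the same order. Detected in Panc-1 only, it was 1.32-fold higher in CD166- cells (-0.40), close above the floor of 37.3 to 41.5, the lowest signal among detected probes of each array.

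MMP7, or matrilysin, lacks the hemopexin domain of most MMPs and cuts membrane-bound as well as matrix proteins. Its brighter probe gave 22.5, 21.6, 56.8 and 58.4 in CD166+ SW1990, CD166- SW1990, CD166+ Panc-1 and CD166- Panc-1 cells. The other probe gave 25.2, 23.7, 44.8 and 44.3. Both MMP7 probes were thus undetected in SW1990 and detected in Panc-1, where the CD166+ and CD166- arrays lay within 0.04 on the log2 scale (-0.04 and 0.02). MMP1 and MMP7 were the 2 detected genes among 10 measured MMP genes of chromosome 11. The other 8, including the stromelysins MMP3 and MMP10, were undetected on all 4 arrays.

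Of the membrane-anchored MMPs, MMP14 was detected on no array and MMP15 in SW1990 only. MMP14, an activator of pro-MMP2 at the cell surface, had signals of 24.9, 31.8, 32.8 and 27.2, with detection p of 0.388, 0.0714, 0.0442 and 0.175 in CD166+ SW1990, CD166- SW1990, CD166+ Panc-1 and CD166- Panc-1 cells. It was the 1 gene of the 10 without a detected probe, which says that it was not above background at this probe, not that it was absent. MMP15, a second membrane-type enzyme, gave 79.5 and 93.3 in SW1990 CD166+ and CD166- cells and undetected signals of 32.7 and 33.0 in Panc-1. At a detection p under 0.05 MMP15 would count as detected in Panc-1 too (0.0442 and 0.0299), and MMP14 on the Panc-1 CD166+ array. The SW1990 populations differed 1.17-fold in MMP15, higher in CD166- cells (-0.23).

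TIMP1 and TIMP2 were detected on all 4 arrays and differed in opposite directions in the lines. TIMP1, an inhibitor of most secreted MMPs, had signals of 9755 in SW1990 CD166+, 14429 in SW1990 CD166-, 8257 in Panc-1 CD166+ and 6774 in Panc-1 CD166- cells. In SW1990 the CD166- cells had 1.48-fold more (-0.56), and in Panc-1 the CD166+ cells 1.22-fold more (0.29). TIMP2, which inhibits MMPs and also takes part in the activation of pro-MMP2 by MMP14, gave 1662.5, 4364, 709.6 and 394 at its brighter probe in the same order. CD166- cells thus had the higher TIMP2 signal in SW1990, by 2.63-fold (-1.39), and CD166+ cells in Panc-1, by 1.80-fold (0.85). The dimmer TIMP2 probe gave 212, 253 and 54.9 and was undetected in Panc-1 CD166- cells at 28.9. It kept these directions, with -0.25 in SW1990 and in Panc-1 a fold of at least 1.41 toward CD166+ cells, where an undetected signal was set to the floor.

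TIMP3, which is held in the matrix and inhibits ADAM17 and ADAM10 as well as MMPs, was detected on 1 array. Its signal was 62.9 in SW1990 CD166+ cells (a detection p of 0.0026) and 21.8, 23.4 and 21.4 in CD166- SW1990, CD166+ Panc-1 and CD166- Panc-1 cells, none of them detected. Within SW1990 TIMP3 was therefore at least 1.52-fold higher in CD166+ than in CD166- cells, the opposite direction to TIMP1 and TIMP2 in that line. With the deposited scaled values the bound shrank to 0.03 on the log2 scale. At a detection p under 0.05 it was 0.92, and with the undetected signal taken as measured the difference was 1.53.

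Both sheddases were detected on all 4 arrays, with higher signals in SW1990 CD166- than SW1990 CD166+ cells. ADAM10, the main sheddase of cadherins and Notch receptors, gave 71.0, 188, 99.4 and 108 at its brighter probe in CD166+ SW1990, CD166- SW1990, CD166+ Panc-1 and CD166- Panc-1 cells. CD166- cells exceeded CD166+ cells 2.64-fold in SW1990 (-1.40) and 1.09-fold in Panc-1 (-0.12). The other ADAM10 probe was undetected on every array, at 24.6 to 40.3, and gave no fold. ADAM17, which releases tumor necrosis factor and EGF receptor ligands, gave 149, 337, 287 and 305 at its brightest probe in that order. CD166- cells were higher by 2.27-fold in SW1990 (-1.18) and 1.06-fold in Panc-1 (-0.09), so that the SW1990 CD166+ array was the lowest of the 4 for the brightest probe of both sheddases.

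The ADAM17 probes disagreed in size. The second, at 44.8, 49.8, 77.3 and 78.4, differed by -0.15 in SW1990 and -0.02 in Panc-1. The third was undetected in SW1990 CD166+ cells at 36.6 and gave 56.1, 53.6 and 47.8 in CD166- SW1990, CD166+ Panc-1 and CD166- Panc-1 cells, a fold of at least 1.44 toward CD166- cells within SW1990 and a log2 fold of 0.16 within Panc-1. All 3 ADAM17 probes were lower in CD166+ than CD166- cells of SW1990.

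**Figure D1:**
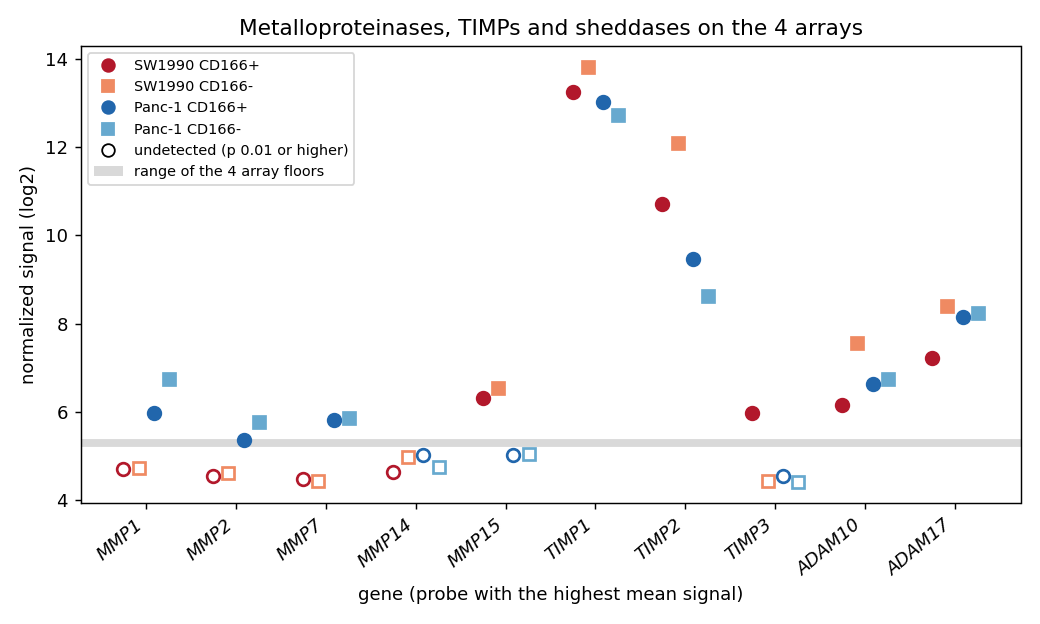
Normalized signal (log2 scale) of the brightest probe of each of the 10 genes on the 4 arrays, 1 point per array, with open symbols for undetected signals and a grey band for the range of the 4 array floors. MMP1, MMP2 and MMP7 are detected only in Panc-1 and MMP15 only in SW1990, while TIMP1, TIMP2, ADAM10 and ADAM17 are detected on every array.

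Within SW1990, 3 of the 6 genes detected on either array differed by over 2-fold, namely TIMP2, ADAM10 and ADAM17, all higher in CD166- cells. Of all 10783 detected genes, 27.7% differed this much, 14.2% with CD166- cells higher and 13.5% with CD166+ cells higher. The median log2 fold was -1.18 over the 5 genes detected on both arrays and -0.05 over all 8504 such genes. Among the probes of 1 gene, the log2 fold had an SD of 0.439 over 1985 genes with several detected probes. This technical spread holds no error of sort or culture, so a value outside it is not shown to be a real difference. At the brightest probe, TIMP1 (-0.56), TIMP2, ADAM10 and ADAM17 lay outside it whereas MMP15 (-0.23) lay inside, as TIMP1 did with median scaling (-0.35). The dimmer TIMP2 probe (-0.25) and the second ADAM17 probe (-0.15) lay inside it, and the third ADAM17 probe, with a bound of -0.52, outside. Without background correction TIMP2 alone passed 2-fold (-1.36), with ADAM10 and ADAM17 both at -0.95. With the mean over detected probes ADAM10 alone passed (-1.40), with TIMP2 at -0.82 and ADAM17 at -0.65. Only 1 ADAM10 probe was detected on any array, so this setting could not change its value.

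Within Panc-1, none of the 7 genes detected on either array differed by over 2-fold, as against 1.01% of 10532 genes (0.598% toward CD166+ and 0.408% toward CD166- cells). The largest differences were TIMP2 (0.85, higher in CD166+ cells) and MMP1 (-0.76, higher in CD166- cells), and both passed 1.5-fold. MMP1 did not pass it without background correction (-0.46), with an offset of 50 (-0.54) or with the scaled table (-0.48). The SD between probes of 1 gene, again a technical spread without error of sort or culture, was 0.217 over 2296 genes. TIMP2, MMP1, MMP2 and TIMP1 lay outside it, although MMP2 came inside without background correction (-0.19) and with the scaled table (-0.20). A set of 44 probes had a signal over 1000 in SW1990 CD166+ cells and were undetected on the Panc-1 CD166- array. At these, the Panc-1 CD166+ signal was a median of 3.03% of the SW1990 CD166+ signal, and its source was not tested. With that share of the SW1990 CD166+ signal subtracted, TIMP2 was at 0.77, TIMP1 at 0.27, MMP1 at -0.70 and MMP2 at -0.36.

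**Figure D2:**
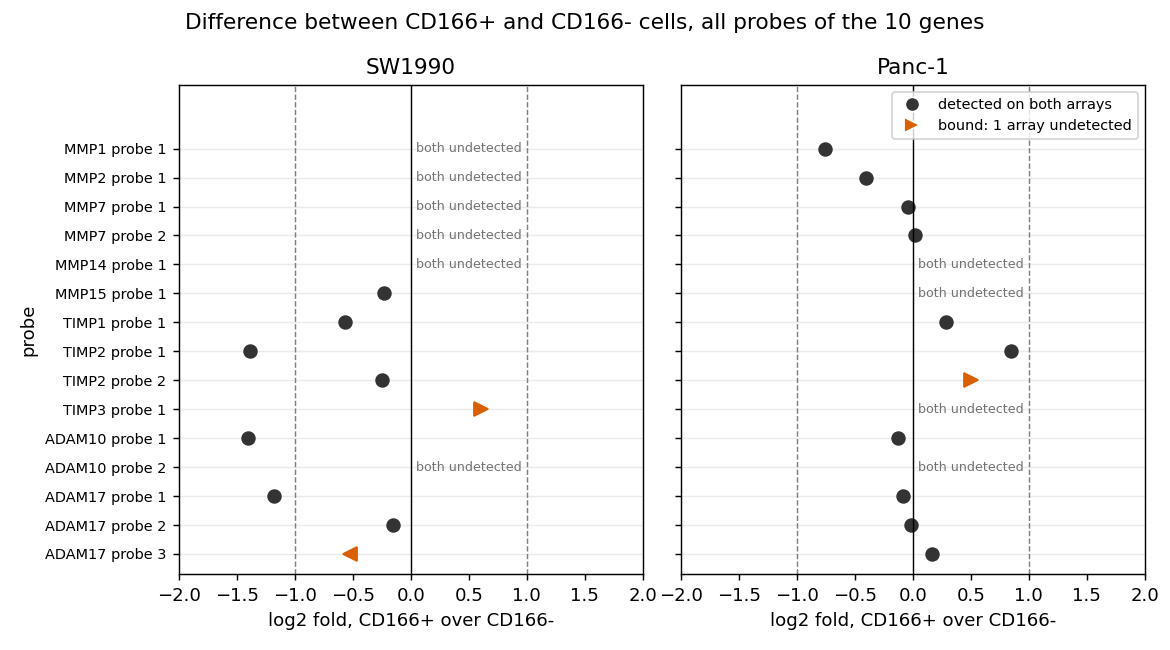
Log2 fold, CD166+ over CD166-, of all 15 probes in SW1990 (left) and Panc-1 (right), with arrowheads for bounds where 1 array is undetected and dashed lines at 2-fold. The brighter probes of TIMP2, ADAM10 and ADAM17 lie beyond the 2-fold line in SW1990, and no probe does in Panc-1.

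Across both lines, CD166+ was compared with CD166- cells in 1 limma fit with the cell line as a block, over the 10367 genes with detection on 2 or more arrays. Of the 10 genes 8 were tested, and MMP14 and TIMP3 were not. None of the 8 was called at an adjusted p under 0.05, nor was any of the 10367 genes in the fit (0%). An unadjusted limma p under 0.05 was found for 158 of these genes (1.52%) but for none of the 8. ADAM10 had the largest difference, -0.76 ± 0.469 (SE, limma adjusted p = 0.921), followed by ADAM17 at -0.63 ± 0.442 (limma adjusted p = 0.921) and MMP1 at -0.40 ± 0.398 (limma adjusted p = 0.921). TIMP2 averaged -0.27 ± 0.638, the widest error of the 8, and TIMP1 -0.14 ± 0.411, since the lines ran in opposite directions. With SW1990 left out ADAM10 was at -0.12 and ADAM17 at -0.09, and with Panc-1 left out MMP1 was at -0.03. MMP2, MMP15 and MMP7 differed by -0.23, -0.12 and 0.01, each less than its SE of 0.36 to 0.37, and for these genes and MMP1 the arrays of 1 line held background signal. With 1 residual degree of freedom the fit could miss real differences, so these values do not show that the populations were alike.

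Between the lines, 4 of the 10 genes were detected on both arrays of 1 line and neither of the other, while TIMP1, TIMP2, ADAM10 and ADAM17 were detected on all 4 arrays. MMP1, MMP2 and MMP7, 3 of the 9 detected genes, were detected on both Panc-1 arrays and neither SW1990 array, as were 4.33% of 11640 genes. MMP15 was the 1 of 9 with the opposite pattern, found for 1.62% of genes. In CD166- cells, MMP1 was at least 2.58-fold, MMP7 at least 1.41-fold and MMP2 at least 1.33-fold higher in Panc-1. In CD166+ cells the same bounds were 1.62, 1.46 and 1.07 in that order. MMP15 was at least 2.13-fold higher in SW1990 in CD166+ cells and at least 2.40-fold in CD166- cells. TIMP2 was 2.34-fold higher in SW1990 among CD166+ cells and 11.1-fold among CD166- cells, the widest gap of any member. These were the 2 of 8 tested genes over 2-fold higher in SW1990 for both populations, beside 3.32% of 10173 genes, and none of the 8 was over 2-fold lower in both, beside 6.32%.

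In the limma fit, SW1990 minus Panc-1 came to 2.35 ± 0.638 for TIMP2 (SE, adjusted p = 0.206). MMP1, MMP2, MMP7 and MMP15 entered the fit through the line that detected them, so the bounds above stand for their size, beside limma adjusted p of 0.177, 0.303, 0.193 and 0.193. None of the 8 genes was called, whereas 0.0579% of genes were called higher and 0.752% lower in SW1990. At an unadjusted limma p under 0.05, 5 of the 8 passed, beside 16.3% of 10367 genes. They were TIMP2 and the genes MMP1, MMP2, MMP7 and MMP15, so the count depends on genes that passed the filter through 1 line. TIMP1 was higher in SW1990 by 0.67 ± 0.411 (limma adjusted p = 0.491). ADAM10 and ADAM17 differed by 0.16 ± 0.469 and -0.40 ± 0.442, both within the SE, and the direction turned with the population. In CD166+ cells ADAM10 was 1.40-fold and ADAM17 1.93-fold higher in Panc-1, and in CD166- cells 1.73-fold and 1.11-fold higher in SW1990.

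Most relatives of these enzymes were undetected. Of 18 other MMP genes measured, 3 were detected in SW1990 and 4 in Panc-1. In SW1990, MMP11 (stromelysin-3) leaned toward CD166- cells by at least 2.66-fold and MMP28 (epilysin) toward CD166+ cells by at least 2.84-fold. MMP23B was 2.57-fold higher in CD166- cells, at a probe that may not separate it from its near-identical copy MMP23A. The gelatinase MMP9 was detected in Panc-1 only, at 40.8 in CD166+ and 43.8 in CD166- cells, near the floor. So was the membrane-type MMP16, at 71.4 and 60.5.

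Among 18 other ADAM genes measured, 5 were detected in SW1990. ADAM9 was the 1 of these 5 over 2-fold apart, beside 27.7% of all detected genes. ADAM9 gave 62.9 in CD166+ and 231 in CD166- cells, or 3.67-fold. It had the same direction as ADAM10 and ADAM17 there, and in Panc-1 ADAM9 gave 89.4 and 87.0. ADAM19 separated the lines, with 1058 and 1029 in Panc-1 CD166+ and CD166- cells and undetected signals of 31.2 and 26.4 in SW1990. ADAM19 was at least 27.1-fold higher in Panc-1 among CD166+ and at least 24.8-fold among CD166- cells (limma adjusted p = 0.0344), with SW1990 known only as below detection. It entered the fit through the Panc-1 arrays alone, so the call rests on a filter passed only where its signal was high. The call was lost without background correction (limma adjusted p = 0.0506), with an offset of 50 (limma adjusted p = 0.0589) and without the filter on dim probes (limma adjusted p = 0.249). Of the remaining families in SW1990, ADAMTS1, a secreted proteoglycan-cutting enzyme, and the inhibitor TIMP4 shared the direction of TIMP3, with folds of at least 5.25 and 3.55 toward CD166+ cells.

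Of 18 genes that regulate ADAM10 or ADAM17, 15 were detected in SW1990, with 3 past 2-fold toward CD166- and 1 toward CD166+ cells, and in Panc-1 none of 15 passed 2-fold. For this and the next lists the shares over all genes are the 14.2% and 13.5% in SW1990 and 0.408% and 0.598% in Panc-1 given above, and 4 of 15 is near the 27.7% for either direction. RHBDF2 and RHBDF1, the inactive rhomboids that carry ADAM17 to the cell surface, had signals of 387 and 620.2 in SW1990 CD166+ and 1147 and 1629.5 in SW1990 CD166- cells, 2.96-fold and 2.63-fold higher in the latter. Tetraspanins of the TspanC8 group escort ADAM10. Of these, TSPAN17 was 2.61-fold higher in CD166- cells (934 against 2439) and TSPAN10 at least 4.84-fold higher in CD166+ cells (201 against an undetected 29.9). TSPAN5, another ADAM10 escort, was undetected in SW1990 and gave 929 and 1055 in Panc-1 CD166+ and CD166- cells, at least 23.8-fold and 25.5-fold higher there (limma adjusted p = 0.0344, lost under the same 3 settings as ADAM19). Like ADAM19, TSPAN5 entered the fit through the Panc-1 arrays alone. The median log2 fold of the list was -0.63 in SW1990 and -0.05 in Panc-1, beside -0.02 and -0.005 over all genes detected on either array.

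Of 45 measured genes whose proteins are known to be shed by ADAM10 or ADAM17, RNA of 31 was detected in SW1990. Of these, 15 passed 2-fold toward CD166- and 6 toward CD166+ cells, with a median of -0.96. The prion protein PRNP (8.93-fold), the syndecan SDC4 (8.51-fold), the hyaluronan receptor CD44 (6.28-fold) and the Notch ligand JAG1 (at least 36.1-fold) were higher in CD166- cells. The desmosomal cadherin DSG2 (at least 26.8-fold), the N-cadherin gene CDH2 (at least 8.69-fold) and ALCAM, which defined the sort, were higher in CD166+ cells. In Panc-1 3 of 31 passed 2-fold, all of them higher in CD166+ cells. They were ALCAM, CDH2 (688 against 201, 3.42-fold) and DSG2 (264 against 85.6, 3.08-fold). The counts of both lines include ALCAM, whose direction the sort fixed in advance. With the SW1990 share subtracted CDH2 was 3.51-fold and DSG2 2.72-fold higher. The chemokines CX3CL1, of this list, and CCL2, of the list of MMP substrates, were undetected in SW1990 and called lower there than in Panc-1 (limma adjusted p = 0.0344 and 0.0281). Both entered the fit through the Panc-1 arrays alone, as ADAM19 did. Both calls were lost with an offset of 50 or without the filter on dim probes, that of CX3CL1 also without background correction.

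Of 25 genes for MMP activators and cofactors, 14 were detected in SW1990, 5 past 2-fold toward CD166- and 1 toward CD166+ cells. The urokinase gene PLAU, whose product generates plasmin (54.2 against 3005, 55.4-fold), the kallikrein KLK6 (at least 70.3-fold), caveolin CAV1 (4.96-fold), the tetraspanin CD9 (2.31-fold) and the integrin ITGAV (2.06-fold) were higher in CD166- cells. The claudin CLDN1 differed by at least 3.39-fold the other way. None of 13 passed 2-fold in Panc-1. Of 7 detected matrix and precursor substrates of MMPs in SW1990, 4 passed 2-fold toward CD166+ cells, among them the laminin chain LAMB3 (18.0-fold) and IGFBP3 (at least 31.3-fold), and COL1A2 differed by at least 54.5-fold toward CD166- cells. The median of the 7 genes was 2.39.

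AP-1 and ETS factors bind promoters of several MMP genes. Of 18 detected in SW1990, 6 passed 2-fold toward CD166- and 4 toward CD166+ cells. FOSL1 (51.8 against 371, 7.16-fold), JUN (88.0 against 468, 5.32-fold), MAFF (3.44-fold) and ETV5 (at least 17.1-fold) were higher in CD166- cells, and JUNB (2.87-fold) and ELF3 (at least 12.7-fold) in CD166+ cells. In Panc-1 FOSL1 gave 1013 and 1037 and JUN 1569.5 and 1113 in CD166+ and CD166- cells, above both SW1990 arrays. The AP-1 factors did not share 1 direction between the lines. JUND was higher in SW1990 (3969 and 4315.5 in CD166+ and CD166- cells) than in Panc-1 (2030.5 and 2169). JUNB, FOS and ATF3 were brightest on the SW1990 CD166+ array, at 157, 166 and 211. None of 17 factors passed 2-fold in Panc-1.

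**Figure D3:**
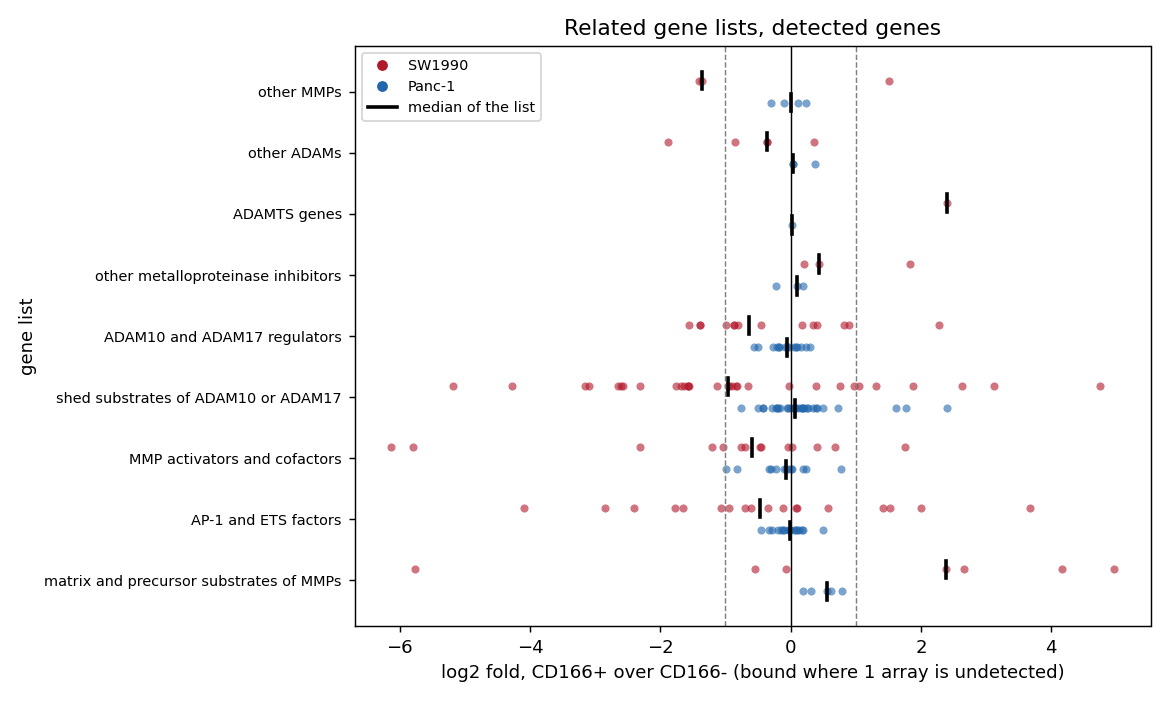
Log2 fold, CD166+ over CD166-, of detected genes in 9 related lists, 1 point per gene and line (SW1990 upper, Panc-1 lower), with the list median as a bar and dashed lines at 2-fold. SW1990 genes spread widely, with a median of -0.96 for shed substrates, while in Panc-1 ALCAM, CDH2 and DSG2 are the genes beyond the 2-fold lines.

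The genes most like a member over the 4 arrays were ranked by the Euclidean distance between log2 signals centred per gene, among genes detected on the same arrays. RAB27B, a small GTPase of secretory vesicles, was nearest to TIMP2 at a distance of 0.165 against a TIMP2 range of 3.47, followed by NR2F1 at 0.346 and ERMP1 at 0.422, among 8113 candidates. IRAK3 (0.148), KISS1R (0.157) and CALY (0.168) were nearest to MMP1, whose range was 2.03, among 503. The mucosal trefoil factor TFF1 was nearest to TIMP3 at a distance of 0.05, followed by GBP1 at 0.078 and H2BC8 at 0.089, among 601. TIMP3 and its neighbours were undetected on 3 of the 4 arrays and MMP1 and its neighbours on both SW1990 arrays, so these distances lie largely between background signals. With 4 points, such closeness is a description of these arrays.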

How the data were processed

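RNA of 4 sorted populations was hybridised to 4 Illumina bead arrays. The authors processed the scans with BeadStudio 3.2.3 and deposited 1 mean bead intensity per probe and array, without normalization or background subtraction. A detection p-value for each probe was deposited beside it. A second deposited table of intensity values holds the same arrays times 1 factor each, 0.857 to 1.09, and served as an alternative. How the scaling was done is not given in the sources used here, and the factors were read from the values.

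Intensities were processed with neqc (limma 3.58.1, R 4.3.3), which takes background from the detection p, adds an offset of 16 and normalizes quantiles. The platform annotation gave 30111 probes 1 gene, 8 several and 17196 none, and 39 Entrez numbers were not found in RefSeq. The probe with the highest mean signal represented a gene, and all probes of the 10 genes were reported. A probe was detected at p under 0.01. Where only 1 array of a pair was detected, the other was set to the higher of its floor and its own signal, and the fold was written as a lower bound. Related genes were named by a rule of size: of each list, up to 4 detected on both arrays and over 2-fold apart and up to 2 detected on 1, and for the 3 of the 10 with the widest range the 3 nearest patterns. MMP9, MMP16, ADAM19, TSPAN5, CX3CL1, CCL2, JUND, FOS and ATF3 were named after their values were seen.

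No test was made within a line. Across lines, a linear model (lmFit with eBayes in limma) was fitted to measured signals of genes detected on at least 2 arrays, with terms for CD166 and cell line and Benjamini-Hochberg adjustment. The pairing comes from the cell line, and as a check the Panc-1 arrays paired by correlation while the SW1990 arrays did not. Alternatives were another background correction, offset, normalization, table, detection threshold, probe rule, fold threshold, filter, intensity trend and block, and the t-test that the methods name. Code was tested on simulated data. The number of arrays limits the precision. The genes and lists were chosen with earlier results of these data known.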

Additional observations from a re-analysis of the deposited data

Results flagged for a closer look

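TIMP1 and TIMP2 moved in opposite directions with CD166 in the lines, each by more than the SD between probes of 1 gene, a technical spread that says nothing of replicate cultures. The log2 fold, CD166+ over CD166-, of TIMP1 was -0.565 in SW1990 and 0.286 in Panc-1. That of TIMP2 was -1.392 in SW1990 and 0.848 in Panc-1. In SW1990, TIMP1 with median scaling (-0.352) and the dimmer TIMP2 probe (-0.251) lay inside that SD of 0.439. Whether the lines differ in this was not tested, since each population has 1 array.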

How the results depend on the processing

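The count of genes over 2-fold apart in SW1990 moved from 3 to 1 without background correction, to 1 with the mean over detected probes and to 0 at 3-fold, and in Panc-1 from 0 to 2 at 1.5-fold. In SW1990 the count was 4 at 1.5-fold and 4 with undetected signals taken as measured, in each case with 1 gene higher in CD166+ cells. Across alternatives the limma calls among the 10 genes stayed at 0 in both contrasts, as without the replicate block, which changed no call among them, and the methods' t-test called 0 of 10367 genes with 134 at an unadjusted p under 0.05. The CD166 difference of MMP7, 0.01 by limma, turned to -0.001 with an offset of 50, -0.12 with median scaling and -0.123 with the scaled table, and that of TIMP2 to 0.033 with the mean over probes. Leaving out 1 line gave -0.041 to 0.058 for MMP7, -0.565 to 0.286 for TIMP1 and -1.392 to 0.848 for TIMP2, where the positive value of TIMP1 and TIMP2 and the negative one of MMP7 are without SW1990. Between the lines, ADAM10 turned to -0.098 with the scaled table, and leaving out the arrays of 1 population (chosen after seeing the data) gave -0.484 to 0.795 for ADAM10 and -0.946 to 0.145 for ADAM17. The cause of these changes was not tested. Over all genes, 84 calls between the lines became 13 without background correction, 0 with an offset of 50 (1647 unadjusted), 32 with median scaling, 309 with the scaled table, 0 without the filter (2527 unadjusted), 131 with the mean over probes and 186 with no replicate block. Genes over 2-fold apart in SW1990 fell from 27.7% to 18.3% without background correction and 12.9% at 3-fold, and rose to 48.9% at 1.5-fold. In Panc-1 the split of 63 higher and 43 lower in CD166+ cells became 27 and 9 with the scaled table, 33 and 9 without background correction, 40 and 17 with an offset of 50, 268 and 276 at 1.5-fold, 25 and 3 at 3-fold, and 43 and 54 with the SW1990 share subtracted (chosen after seeing the data). With the scaled table the median of all SW1990 genes was -0.14. MMP1 in Panc-1 (-0.757) moved to -0.457 without background correction. Leaving out 1 line gave -1.403 to -0.125 for ADAM10, -1.18 to -0.09 for ADAM17 and -0.757 to -0.034 for MMP1. Signals of MMP1, MMP2, MMP7, MMP15 and TIMP3 lie near the floor, which limits their folds. The ADAM10 signal in SW1990 CD166+ cells (71.0) was below that of MMP15 there (79.5), so the SW1990 fold of ADAM10 shares this limit.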
